A study of Mus musculus with 6 samples.

Results

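The proteasome subunit genes are taken here as the rows of a deposited H3K9ac peak table whose gene symbol begins with Psm, a letter from a to g and a digit. This rule found 44 of 17901 peaks, which belong to 40 genes. H3K9ac, the acetylation of a lysine in the tail of histone H3 that is found at active promoters and enhancers, was measured by CUT&RUN, in which a nuclease releases the DNA under an antibody for sequencing. The cells were endothelial cells isolated from mouse lung. There were 3 CSE-KO libraries, labelled Cre-positive, and 3 WT libraries, labelled Cre-negative. CSE stands for cystathionine gamma-lyase, the product of the gene Cth, which releases cysteine from cystathionine. The sources used here do not give the Cre driver, the strain, the age or any treatment of the mice, or say whether each library came from its own animal. The p-values below therefore rest on the spread among these 6 libraries, part of which may be technical.

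The proteasome is the cell's main machine for degrading ubiquitin-tagged proteins. In its core particle, rings of alpha subunits gate the entrance and rings of beta subunits hold the proteolytic sites; a regulatory particle of a base with ATPases and a lid binds the ubiquitin chain, removes it and unfolds the substrate. Interferon signalling replaces the catalytic beta subunits by inducible ones, other activators can cap the core, and dedicated chaperones assemble the complex. The mark at the gene starts is described first, then the comparison of CSE-KO with WT libraries in the order of these roles.

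Of the 50 genes on the role lists, 40 had at least 1 peak. The alpha ring had peaks at 6 of 8 genes and the beta ring at 7 of 7. On the list of inducible beta subunits 3 of 4 genes had one, namely Psmb8, Psmb9 and Psmb10. The other, Psmb11, is on this list but is not an interferon-induced subunit. In the base, 5 of 6 ATPases and 3 of 3 non-ATPase subunits had peaks, and in the lid 7 of 8 subunits. Peaks were found for 3 of 6 activator and inhibitor genes and 5 of 7 assembly chaperones. The remaining member, Psmc3ip, matches the pattern by its name alone and encodes a factor of meiotic recombination. Psma4, Psma7, Psmb11, Psmc5, Psmd13, Psme2, Psme2b, Psmf1, Psmg1 and Psmg2 had no row under their own symbol. A peak is called a start peak when its centre lay within 1 kb of the annotated transcription start or the authors annotated it as a promoter. This gave 37 start peaks, each of another gene, and 7 peaks outside starts, at Psma3, Psma8, Psmb7, Psmb9, Psmc1, Psmc3 and Psmd5. The class follows the deposited annotation, and against RefSeq the Psmc1 peak lies just inside the gene's start and this Psma3 peak covers the outermost start of Psma3.

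The promoters of 5 members are printed because the results turn on their peaks. Psmd1 had the highest level, Psmc6, Psmd12 and Psme3 were the start peaks whose groups did not overlap, and Psmg4 had the smallest unadjusted p. Each is the 250 bases before the RefSeq start on GRCm38.p6, plus strand, 5′ to 3′: Psmd1 chr1:86064369-86064618, Psmc6 chr14:45329574-45329823, Psmd12 chr11:107479278-107479527, Psme3 chr11:101315963-101316212 and Psmg4 chr13:34162714-34162963. Capitals mark matches on either strand to an ETS element (CCGGAAG), antioxidant-type elements (TGACNNNGC and TGAGNNNGC), a CCAAT box (CCAAT) and a TATA box (TATAAA). No marked matches overlap one another in these promoters.
Psmd1: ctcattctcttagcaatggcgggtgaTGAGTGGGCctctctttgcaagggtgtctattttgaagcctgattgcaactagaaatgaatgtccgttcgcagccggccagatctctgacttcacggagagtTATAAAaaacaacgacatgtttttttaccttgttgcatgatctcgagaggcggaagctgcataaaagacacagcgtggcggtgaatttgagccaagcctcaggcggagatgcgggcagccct
Psmc6: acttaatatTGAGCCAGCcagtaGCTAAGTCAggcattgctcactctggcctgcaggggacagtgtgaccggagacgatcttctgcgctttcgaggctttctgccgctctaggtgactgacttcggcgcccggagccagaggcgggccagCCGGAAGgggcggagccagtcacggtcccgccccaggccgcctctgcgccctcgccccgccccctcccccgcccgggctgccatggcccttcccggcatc
Psmd12: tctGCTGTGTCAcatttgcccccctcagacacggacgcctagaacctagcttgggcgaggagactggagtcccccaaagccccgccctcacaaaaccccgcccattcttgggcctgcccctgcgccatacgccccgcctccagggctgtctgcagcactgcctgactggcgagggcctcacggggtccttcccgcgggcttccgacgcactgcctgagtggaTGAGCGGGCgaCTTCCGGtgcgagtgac
Psme3: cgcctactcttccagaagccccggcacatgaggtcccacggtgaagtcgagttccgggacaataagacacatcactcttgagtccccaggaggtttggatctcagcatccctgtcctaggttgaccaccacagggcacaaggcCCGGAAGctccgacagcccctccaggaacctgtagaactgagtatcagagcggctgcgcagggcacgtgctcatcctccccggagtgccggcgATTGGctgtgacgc
Psmg4: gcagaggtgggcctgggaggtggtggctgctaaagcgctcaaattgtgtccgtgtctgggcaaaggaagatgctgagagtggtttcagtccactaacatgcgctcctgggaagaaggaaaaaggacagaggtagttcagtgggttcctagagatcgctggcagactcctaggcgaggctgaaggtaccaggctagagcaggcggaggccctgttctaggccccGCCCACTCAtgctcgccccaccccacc

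The ETS element was found in 36.4% of 33 promoters of 31 member genes with a start peak. It was in 15.2% of the 8084 promoters of all genes with a start peak, and in 6.91% of all 32851 promoters of the same length. In the printed promoters it stands in Psmc6, Psmd12 and Psme3. TGAGNNNGC was found in 30.3% of the member promoters, against 16.2% of promoters of genes with a start peak and 14.4% of all. For TGACNNNGC the shares of these 3 sets, in the same order, were 15.2%, 12.1% and 10.2%, and for CCAAT 33.3%, 36% and 33.9%. TATAAA was in 12.1% of the member promoters, 5.93% of promoters of genes with a start peak and 12.4% of all. A match is a description of the letters and was not tested for binding.

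Proteasome genes with a start peak mostly carried high H3K9ac there in both groups. Levels between genes are given as CPM per kb of peak, CPM being the count relative to the library's TMM-scaled total, divided by the peak's length, averaged over the 6 libraries. The median start peak of the members had 85.1 CPM per kb, against 58.8 CPM per kb over all 8021 start peaks, and the median member stood at the 85.0 percentile of them. The highest was Psmd1, which encodes the large scaffold subunit of the base, with 228 CPM per kb, the 99.98 percentile of all start peaks. Psmd6 had 145 CPM per kb, the start peak of Psma3 135, Psmd12 132 and Psmd11 126. Psmd6, Psmd12 and Psmd11 encode lid subunits and Psma3 an alpha subunit.

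By role, the median start peak had 117 CPM per kb over 7 lid genes, 103 over 3 non-ATPase base genes, 93.9 over 5 alpha genes, 89.1 over 4 ATPase genes and 85.5 over 7 beta genes. The 3 activator genes had a median of 70.3 CPM per kb and Psmb8 and Psmb10, the inducible beta genes with a start peak, 58.3. The 5 assembly chaperones were lowest, with a median of 44.7 CPM per kb, and Psmg4 (38.7), Psmd10 (40.3) and Psmd9 (44.7) were the lowest start peaks of proteasome genes. Across single libraries the lid median ran from 119 to 121 CPM per kb in CSE-KO libraries and from 109.7 to 128 in WT libraries. The chaperone median ran from 38.0 to 58.0 CPM per kb in CSE-KO libraries and from 42.1 to 60.9 in WT libraries, so the lid stood above the chaperones in each library. The neighbouring medians of lid, non-ATPase base, alpha, ATPase and beta genes overlapped over libraries.

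**Figure D1:**
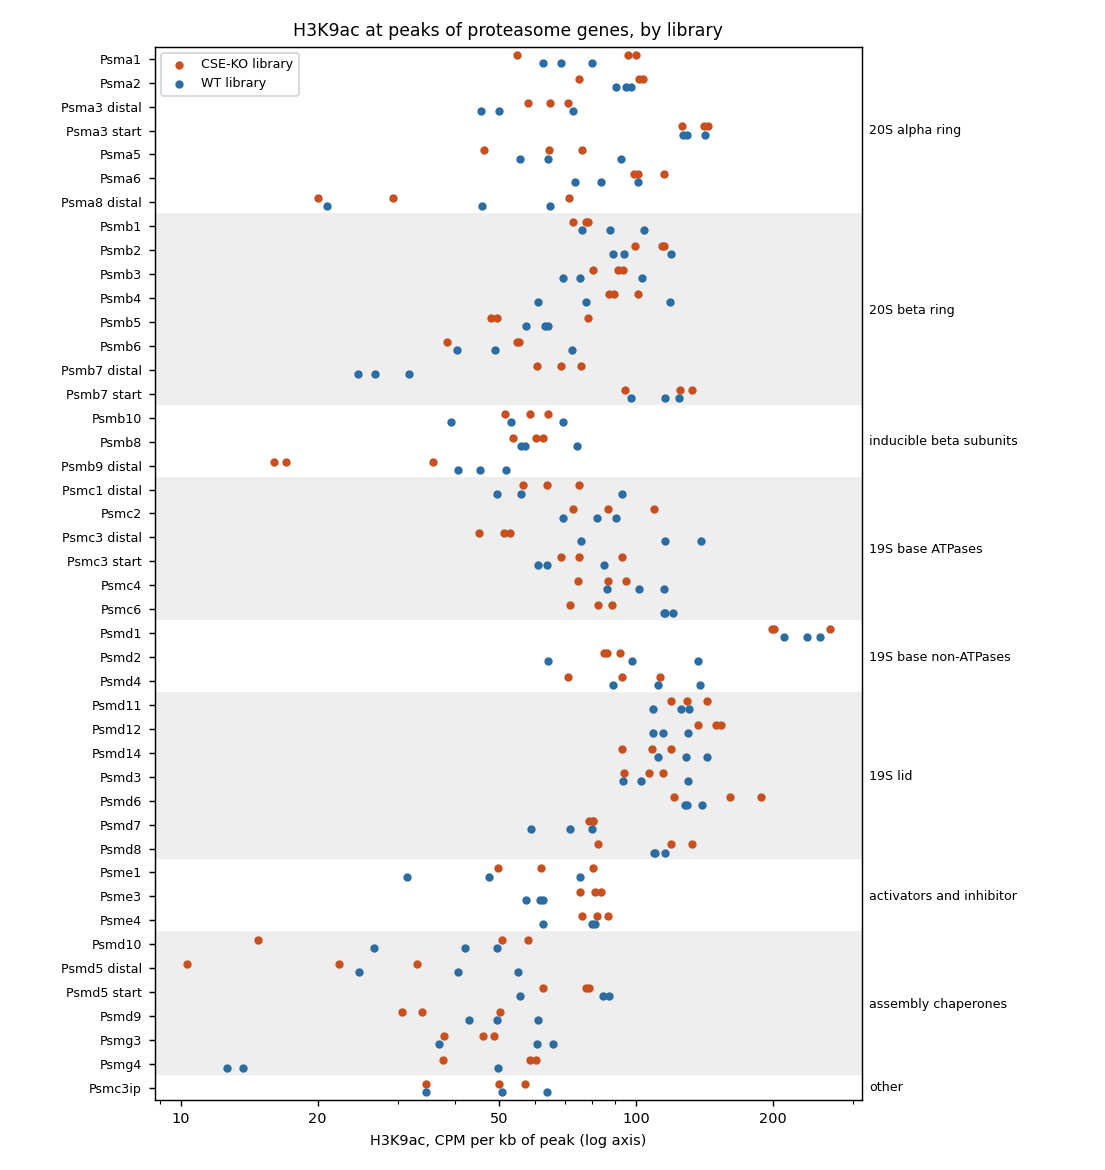
H3K9ac level in CPM per kb of peak (log axis) at the 44 peaks, ordered by role, with a point for each of the 3 CSE-KO and 3 WT libraries. Psmd1 lies farthest to the right, and the points of both groups overlap at all but 6 peaks.

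The centres of the peaks lay mostly downstream of the start. At 36 of 37 start peaks of members (97.3%) the centre was inside the gene, against 82.0% of all 8021 start peaks, and the median distance was 438 bp against 276 bp. Psmb8 was the exception, with its centre 8 bp before the start. For the 31 members with a RefSeq start, 19 peaks covered the start and 12 lay wholly downstream, whereas 1594 of 6378 start peaks of all genes lay wholly downstream. Of these 12, Psmd8 began 190 bp, Psmb10 113 bp and Psma5 108 bp into the gene, the farthest, but Psmc2 only 5 bp and Psmb6 19 bp. The median length was 1128 bp for member start peaks and 1073 bp for all start peaks, and the broadest, at Psmd5, measured 2222 bp. The authors' annotation put most centres in the first intron, but those of Psmb10, Psmb4 and the Psmc3 start peak in exon 2 and that of Psmg4 in exon 1. Those of Psma2, Psmb3, Psmb5, Psmb8, Psmc3ip and Psmd10 were annotated as promoter.

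**Figure D2:**
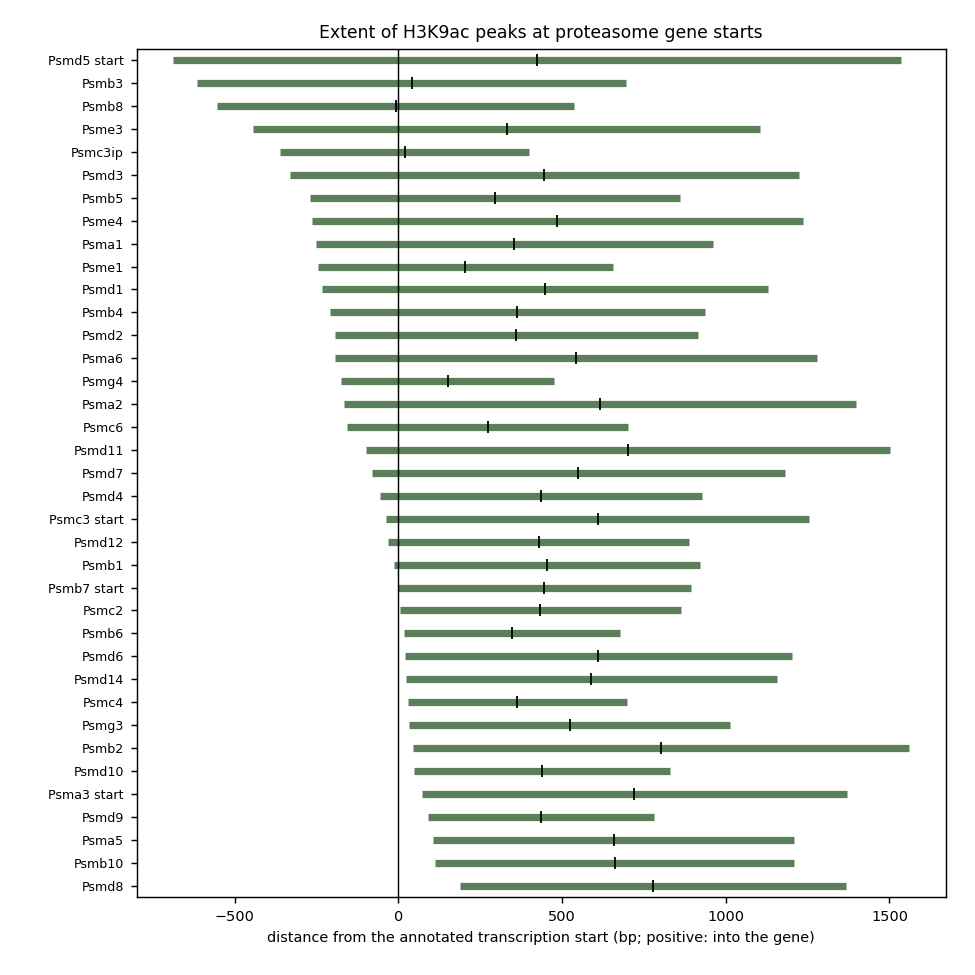
Extent of the 37 start peaks of the members (bars) and their centres (ticks), in bp from the annotated transcription start. All centres but that of Psmb8, at -8 bp, lie to the right of the start.

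Some members share their start with another gene. A divergent RefSeq gene with its start within 1 kb was found for 2 of 31 members with a start peak (Psma2 with Mrpl32, Psmd10 with Atg4a), or 6.45%, against 17.6% of 6308 genes with a start peak. It was also found for Psma7, Psmb9, Psmc5, Psmd13 and Psme2, which have no start peak under their own symbol. Over all 42 pattern genes with a RefSeq start the share was 7 genes or 16.7%. Why the share over the 31 was lower was not tested. Peaks over the starts of Psma4 and Psmd13 and over a RefSeq start of Psme2 carry the symbols AY074887, Sirt3 and Rnf31. For these genes the lack of a row is therefore not a lack of the mark. H3K9ac at such a start cannot be assigned to either gene. The Tap1 peak lies just upstream of the Psmb9 start and does not cover it. By contrast, no peak of any symbol lay within 1 kb of the RefSeq starts of Psma7, Psmb11, Psmc5, Psme2b, Psmf1 and Psmg1.

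Total counts over the 17901 peaks were 1173016, 679938 and 685131 in CSE-KO replicates 1 to 3 and 676056, 313610 and 610922 in WT replicates 1 to 3. WT replicate 2 was the shallowest. Cth had no peak, so the deletion could not be checked in these data. Of the endothelial marker genes 15 of 15 had peaks, with a summed level of 2801 to 3137 CPM in CSE-KO and 3104 to 3283 CPM in WT libraries. The epithelial list had peaks at 6 of 9 genes, with 508 to 559 CPM in CSE-KO and 528 to 593 CPM in WT libraries. Those with peaks were Epcam, Cdh1, Krt8, Krt18, Foxa2 and Scgb1a1, while Sftpc, Sftpb and Nkx2-1 had none. Of the leukocyte and the fibroblast, smooth muscle and pericyte markers, 1 of 9 each had a peak, and Ptprc, Cd68, Pdgfra and Pdgfrb had none. Csf1r of the leukocyte list had 21.2 to 23.4 CPM in CSE-KO and 16.3 to 38.8 CPM in WT libraries. Col1a1 of the other list had 21.9 to 50.8 CPM in CSE-KO and 32.3 to 46.0 CPM in WT libraries. The normalized columns of the deposited table carry another prefix in their names for CSE-KO than for WT libraries, and any batch behind that prefix cannot be told apart from the genotype.

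No peak of a proteasome gene passed the test between CSE-KO and WT libraries. The comparison was of Cre-positive CSE-KO with Cre-negative WT libraries, so an effect of Cre itself cannot be told apart from loss of CSE. By edgeR's quasi-likelihood test 0 of 44 members were called at a Benjamini-Hochberg adjusted p under 0.05. The adjustment was over all 16134 tested peaks, of which 0.0868% were called (0.0248% higher and 0.062% lower in CSE-KO). The lowest adjusted p of a member was 0.596. All 44 members passed the filter on low counts, as did 90.1% of all peaks. At an unadjusted p under 0.05 there were 7 members (15.9%), 3 higher and 4 lower in CSE-KO, beside 7.08% of all tested peaks, 3.01% higher and 4.07% lower. This count was 2 without WT replicate 1, beside 7.71% of all tested peaks in that fit, and 9 without WT replicate 2, beside 7.41%. It was 4 without CSE-KO replicate 1, beside 5.37%, and 4 without WT replicate 3, beside 6.90%. DESeq2 called 0 members, with 5 at an unadjusted p under 0.05, beside 5.47% of all peaks, and voom called 0, with 7, beside 7.75%. At 6 members (13.6%) the libraries of the groups did not overlap, 3 higher and 3 lower in CSE-KO, beside 13% of all tested peaks (11.9% of start peaks and 14% of the others). Of the 7 members at an unadjusted p under 0.05, 4 were among the 7 peaks outside starts and 3 among the 37 start peaks, beside 8.5% of all tested peaks outside starts and 5.55% of start peaks. Those 4 were at Psmb7, Psmb9, Psmc3 and Psmd5, and none was the Psma3 or Psmc1 peak that RefSeq places at a start. In these bulk libraries fewer cells with the mark and less of it per cell cannot be told apart.

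Relative to the other peaks, the members as a whole lay around no difference. Levels were scaled to each library's own counts, so a change of H3K9ac shared by all peaks would not be seen. Their median log2 fold change (CSE-KO over WT) was -0.0045, beside -0.00034 over all tested peaks, with 21 members above and 23 below 0. It was 0.043 over the start peaks and -0.10 over those outside starts. The log2 fold change was within 0.5 either way at 38 of 44 members. With 2 SE on either side it stayed within 1 at 34 of 37 start peaks and at 2 of the 7 others, namely those Psma3 and Psmc1 peaks; the median count of the 7 was 14.3 per library against 67.7 at the 37 start peaks. The members held 0.430%, 0.408% and 0.416% of the counts in CSE-KO libraries and 0.410%, 0.422% and 0.386% in WT libraries. The mean share was 0.418% ± 0.0114 in CSE-KO and 0.406% ± 0.0185 in WT libraries (SD, n = 3 each), and the groups overlapped.

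**Figure D3:**
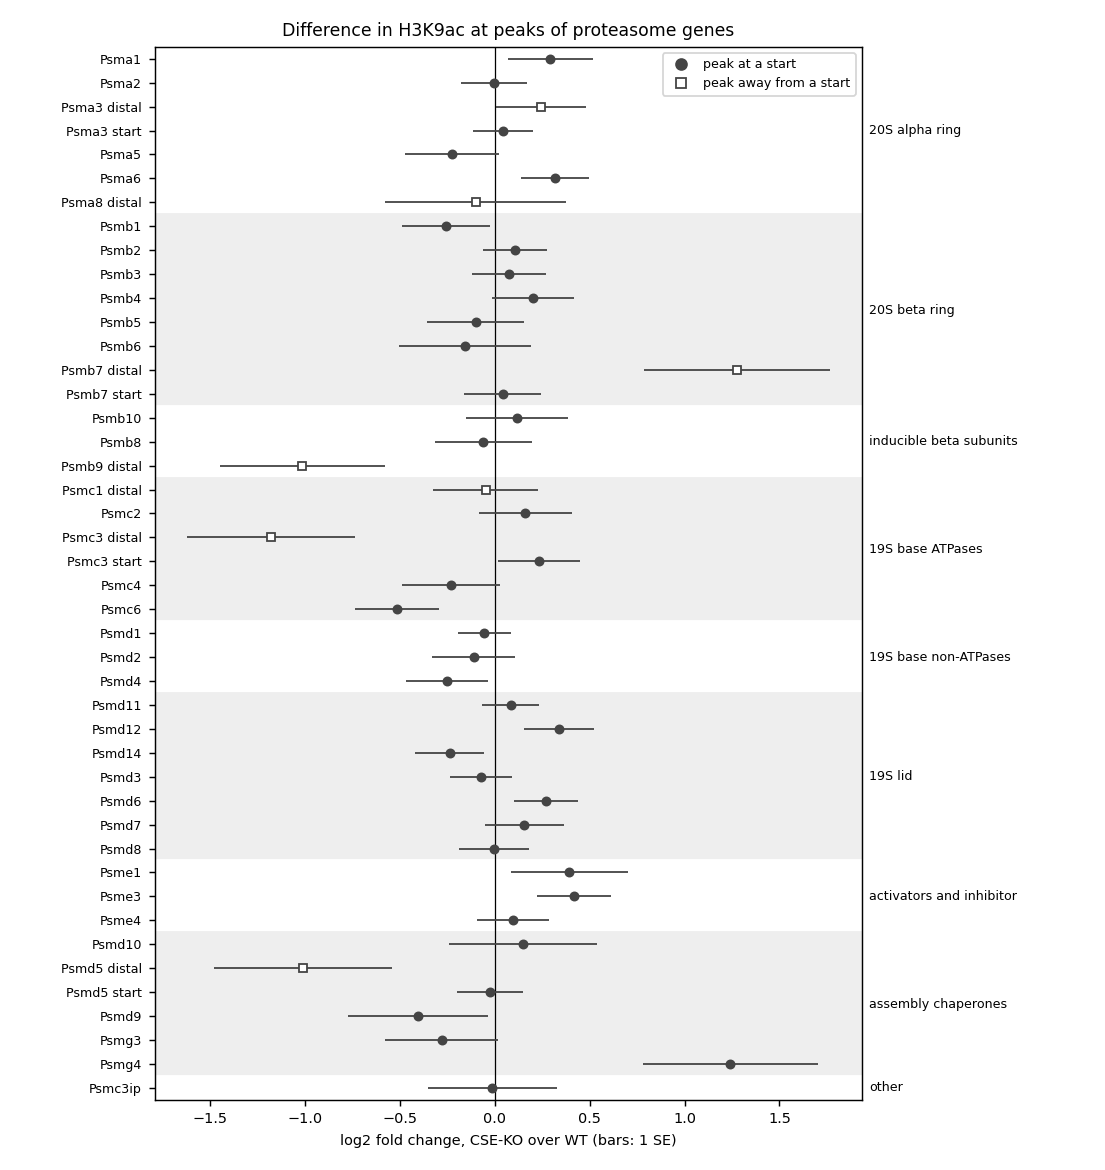
Log2 fold change of H3K9ac, CSE-KO over WT, at each of the 44 peaks by role, with 1 SE to either side from edgeR. Filled points are start peaks and open squares peaks outside starts, and 38 of the 44 points lie within 0.5 of 0.

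**Figure D4:**
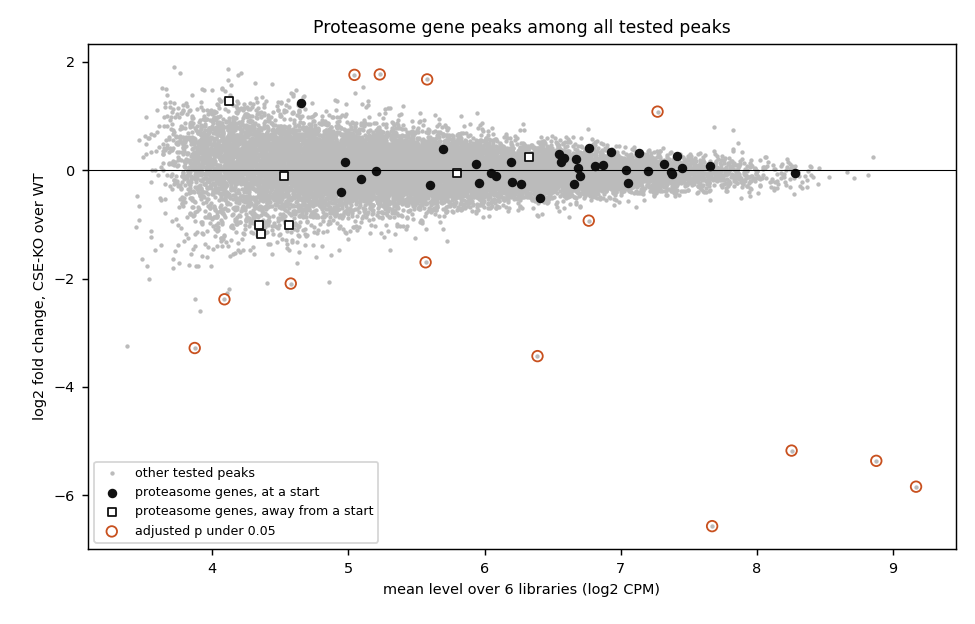
Log2 fold change (CSE-KO over WT) against mean level (log2 CPM) for the 16134 tested peaks, with the 37 start peaks of proteasome genes in black, their 7 other peaks as open squares and the 14 peaks at an adjusted p under 0.05 ringed. No member is ringed, and the members at the largest fold changes sit at low levels.

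In the alpha ring, Psma6 had 146, 149 and 169 CPM in CSE-KO libraries and 108, 149 and 123 CPM in WT libraries. WT replicate 2 reached the CSE-KO range, so the groups overlapped. Its log2 fold change of 0.32 (SE 0.18) had an adjusted p of 0.747 by edgeR. Psma3 had a pair of peaks. Its start peak (chr12:70974697-70975992, GRCm38) had 183, 164 and 187 CPM in CSE-KO libraries and 184, 168 and 165 CPM in WT libraries, which is nearly the same range. A peak at chr12:70968279-70969609 had 77.0, 86.3 and 94.1 CPM in CSE-KO libraries and 66.7, 96.9 and 60.9 CPM in WT libraries. It is annotated as intergenic at -5679 bp, but it covers the outermost RefSeq start of Psma3 at 70969283 and a tRNA gene. The highest and the lowest of its values were both in WT, and the log2 fold change was 0.24 (SE 0.24). Psma8 encodes an alpha subunit of the testis, and its peak in intron 2 had 11, 16.1 and 39.1 CPM in CSE-KO libraries and 25.2, 35.5 and 11.5 CPM in WT libraries. The range within each group was wider than the difference of their means. Psma1, Psma2 and Psma5 had log2 fold changes of 0.29, -0.01 and -0.22, with SEs of 0.23, 0.17 and 0.25.

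The catalytic sites of the beta ring are in Psmb5, Psmb6 and Psmb7, the chymotrypsin-like, caspase-like and trypsin-like subunits. Their start peaks had log2 fold changes of -0.10 (SE 0.26), -0.16 (SE 0.35) and 0.04 (SE 0.20). The other start peaks of the ring ran from -0.26 at Psmb1 to 0.20 at Psmb4. The Psmb7 start peak (chr2:38643013-38643907) had 112, 84.8 and 119 CPM in CSE-KO libraries and 111, 87.2 and 104 CPM in WT libraries. Its groups overlapped. A narrow second peak of 363 bp in intron 5 of Psmb7 (chr2:38621293-38621655) had 22.0, 24.9 and 27.5 CPM in CSE-KO libraries and 8.90, 9.69 and 11.5 CPM in WT libraries. All CSE-KO libraries were above all WT libraries, at counts of 26, 17 and 19 in CSE-KO and 6, 3 and 7 in WT libraries. The log2 fold change was 1.27 (SE 0.49), the largest of the members, and the adjusted p by edgeR was 0.604, so it did not pass the test.

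Among the inducible beta subunits, which replace the catalytic ones in the immunoproteasome, both start peaks were near no difference. Psmb8 had 58.4, 65.8 and 68.1 CPM in CSE-KO libraries and 62.3, 80.8 and 60.9 CPM in WT libraries. Psmb10 had 64.3, 70.2 and 56.5 CPM in CSE-KO libraries and 43.0, 58.2 and 75.7 CPM in WT libraries. The groups overlapped at both, with log2 fold changes of -0.06 (SE 0.25) and 0.12 (SE 0.27).

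Psmb9 had no start peak of its own, and the peak that carries its symbol (chr17:34170769-34171455) lies 10575 bp past the end of the gene, between it and H2-DMb1. This peak had 11, 11.7 and 24.6 CPM in CSE-KO libraries and 31.1, 35.5 and 28.0 CPM in WT libraries. All CSE-KO libraries were below all WT libraries, the log2 fold change was -1.01 (SE 0.44) and the adjusted p by edgeR 0.637. Psmb9 and Tap1, a subunit of the peptide transporter of antigen presentation, start 226 bp apart in opposite directions. The peak over the Tap1 start, whose edge is 70 bp from the Psmb9 start, had 75.3, 71.6 and 76.8 CPM in CSE-KO libraries and 86.0, 87.2 and 104 CPM in WT libraries. Its groups did not overlap either, but the log2 fold change was -0.31 (SE 0.22) with an adjusted p of 0.806. Neither peak passed the test.

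**Figure D5:**
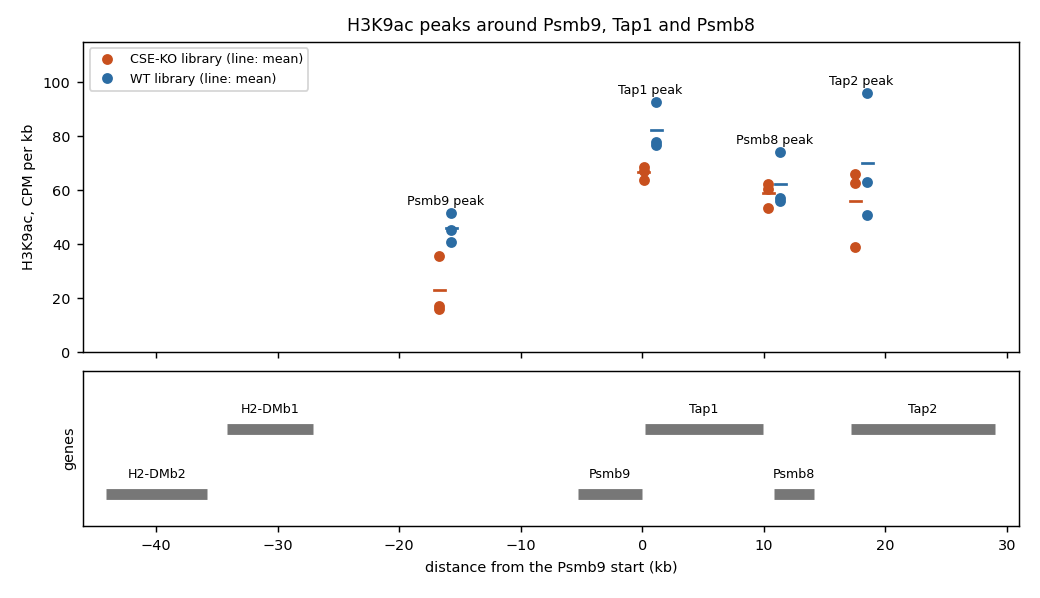
Upper panel: H3K9ac in CPM per kb at the 4 peaks around Psmb9, with a point per library and a line at the mean of CSE-KO and WT; lower panel: RefSeq genes, in kb from the Psmb9 start. The CSE-KO points are below the WT points at the Psmb9 and Tap1 peaks, and the groups overlap at the Psmb8 and Tap2 peaks.

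In the ATPase ring of the base, the largest difference at a start was at Psmc6 (chr14:45329669-45330526). Its peak, which covers the start and intron 1 and holds part of the promoter printed above, had 76.2, 61.4 and 71.0 CPM in CSE-KO libraries and 99.4, 103 and 98.7 CPM in WT libraries. All CSE-KO libraries were below all WT libraries, whose values lay close together. The mean was 69.5 ± 7.49 CPM in CSE-KO and 100.5 ± 2.54 CPM in WT libraries (SD, n = 3 each). The log2 fold change was -0.51 (SE 0.22), with an unadjusted p of 0.024 and an adjusted p of 0.637 by edgeR's quasi-likelihood test. Leaving out any 1 library gave log2 fold changes from -0.59 to -0.44.

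Psmc3, another ATPase, had a start peak (chr2:91053981-91055270) with 120.2, 96.5 and 88.3 CPM in CSE-KO libraries and 78.6, 109.9 and 82.3 CPM in WT libraries, and the groups overlapped. A second peak under its symbol, of 256 bp (chr2:91061788-91062043), lies 2350 bp past Psmc3, inside the zinc transporter gene Slc39a13. There the values were 13.5, 13.2 and 11.6 CPM in CSE-KO libraries and 35.6, 19.4 and 29.6 CPM in WT libraries, with no overlap. The log2 fold change was -1.18 (SE 0.44) at counts of 16, 9 and 8 in CSE-KO and 24, 6 and 18 in WT libraries, with an adjusted p of 0.596 by edgeR. At the start peak it was 0.23 (SE 0.21), so the pair of peaks differed in sign, which was not tested. Psmc2 and Psmc4 had log2 fold changes of 0.16 (SE 0.25) and -0.23 (SE 0.26). The Psmc1 peak, listed as intergenic at -1642 bp, lies 64 to 911 bp into the RefSeq gene, and its log2 fold change was -0.05 (SE 0.28).

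The non-ATPase base subunits include receptors for ubiquitin chains and their shuttle proteins, beside the scaffold Psmd1. Psmd1 (chr1:86064386-86065748) had 363, 270.5 and 274 CPM in CSE-KO libraries and 323, 346 and 288 CPM in WT libraries. The groups overlapped, and with a mean count of 217 per library this was the best measured member, with a log2 fold change of -0.05 (SE 0.14). Psmd4, a ubiquitin receptor, had 91.4, 111 and 69.5 CPM in CSE-KO libraries and 109.7, 136 and 87.2 CPM in WT libraries. Its groups overlapped too, with a log2 fold change of -0.25 (SE 0.22), and Psmd2 had -0.11 (SE 0.22).

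Of the 7 lid genes, 4 lay above and 3 below 0. Psmd12 (chr11:107479498-107480416) had 141, 126 and 138 CPM in CSE-KO libraries and 105, 119.6 and 100.4 CPM in WT libraries. All CSE-KO libraries were above all WT libraries, with a log2 fold change of 0.34 (SE 0.19) and an adjusted p of 0.741 by edgeR. Psmd6 had 223, 143 and 189.7 CPM in CSE-KO libraries and 151, 165 and 153 CPM in WT libraries. CSE-KO replicate 2 was below every WT library and the groups overlapped, with a log2 fold change of 0.27 (SE 0.17). Psmd14, the deubiquitinase that cuts the chain off the substrate, had 123, 105 and 135 CPM in CSE-KO libraries and 145, 162 and 127 CPM in WT libraries. There the groups overlapped in a single pair of libraries, and the log2 fold change was -0.24 (SE 0.18). Psmd11 had 206, 229.5 and 191 CPM in CSE-KO libraries and 209, 174.5 and 201 CPM in WT libraries, a log2 fold change of 0.08 (SE 0.15). Psmd3, Psmd7 and Psmd8 had -0.07, 0.16 and -0.0038.

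All 3 activator genes with a peak lay above 0. Psme3 (chr11:101315770-101317318), which encodes the activator of the nucleus, had 129, 117 and 126 CPM in CSE-KO libraries and 89.0, 96.9 and 95.4 CPM in WT libraries. All CSE-KO libraries were above all WT libraries, with means of 124 ± 6.46 CPM in CSE-KO and 93.8 ± 4.24 CPM in WT libraries (SD, n = 3 each). With a log2 fold change of 0.42 (SE 0.20), the unadjusted p was 0.038 and the adjusted p 0.682 by edgeR's quasi-likelihood test. Psme1, an interferon-induced activator subunit, had 44.9, 55.6 and 72.4 CPM in CSE-KO libraries and 28.2, 67.9 and 42.8 CPM in WT libraries. Its groups overlapped, with a log2 fold change of 0.39 (SE 0.31), which was 0.10 without WT replicate 1, 0.20 without CSE-KO replicate 3 and 0.68 without WT replicate 2. Psme4, the activator built as a single chain, had 0.09 (SE 0.19), which ran from 0.011 without WT replicate 2 to 0.15 without WT replicate 1. The partner of Psme1, Psme2, had no row of its own. The peak over its start, listed under Rnf31, had 81.2, 114 and 75.3 CPM in CSE-KO libraries and 90.5, 142 and 132 CPM in WT libraries, a log2 fold change of -0.41 (SE 0.21) with an adjusted p of 0.731.

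Among the assembly chaperones, Psmg4 (chr13:34162791-34163440), which helps to build the alpha ring, had the smallest unadjusted p of the members. It had 24.5, 38.0 and 39.1 CPM in CSE-KO libraries and 8.90, 32.3 and 8.23 CPM in WT libraries. WT replicate 2, the shallowest library, was above CSE-KO replicate 1, so the groups overlapped. The counts were 29, 26 and 27 in CSE-KO and 6, 10 and 5 in WT libraries. The log2 fold change was 1.24 (SE 0.46), with an unadjusted p of 0.0099 and an adjusted p of 0.596 by edgeR. Leaving out 1 library moved it from 0.92 without WT replicate 3 (adjusted p 0.774) and 0.93 without WT replicate 1 (adjusted p 0.694) to 1.93 without WT replicate 2. The adjusted p of 0.221 in that last fit was the lowest of any member under the settings tried. Psmg3, which pairs with it, had a log2 fold change of -0.28 (SE 0.30).

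The base chaperones had low peaks apart from the Psmd5 start. That peak (chr2:34869428-34871649) had 173, 175 and 139 CPM in CSE-KO libraries and 188, 194 and 123 CPM in WT libraries, and its groups overlapped. A peak in intron 4 of Psmd5 (chr2:34861326-34861981) had 6.77, 14.6 and 21.7 CPM in CSE-KO libraries and 26.7, 16.2 and 36.2 CPM in WT libraries. CSE-KO replicate 3 was above WT replicate 2 there. Its log2 fold change was -1.01 (SE 0.47), with an adjusted p of 0.682 by edgeR, against -0.03 (SE 0.17) at the start. At the intron peak it ran from -0.59 without CSE-KO replicate 1 to -1.43 without CSE-KO replicate 3. Psmd10, on the X chromosome, had 39.8, 45.3 and 11.6 CPM in CSE-KO libraries and 20.8, 38.8 and 32.9 CPM in WT libraries. CSE-KO replicate 3, at a count of 8, was the lowest library, and the log2 fold change was 0.15 (SE 0.39). Psmd9 had -0.40 (SE 0.37), and Psmc3ip -0.01 (SE 0.34).

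Genes that work with the proteasome did not pass the test either. Of proteasome partners outside the pattern, 14 of 16 genes had peaks and 0 of 14 tested peaks were called, with 5 above and 9 below 0. For genes that control proteasome expression, 15 of 17 had peaks and 0 of 21 tested peaks were called, with 5 above and 16 below 0. Ubiquitin genes and those of its activation had 0 of 15 tested peaks called, 9 above and 6 below 0, and antigen presentation 0 of 8, 1 above and 7 below 0. Over all tested peaks, 0.0868% were called and 50.1% lay below 0. At an unadjusted p under 0.05 by edgeR, these lists had 1 of 14, 1 of 21, 3 of 15 and 0 of 8 tested peaks. Over all tested peaks this share was 7.08%. Their median log2 fold changes were -0.05, -0.11, 0.16 and -0.07, in this order, beside -0.00034 over all tested peaks.

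Of the peaks with the smallest unadjusted p in these lists, 5 are given. Nfe2l2, a stress-responsive transcription factor that acts on antioxidant elements, had 169, 194 and 149 CPM in CSE-KO libraries and 229.8, 217 and 229 CPM in WT libraries at its start. All CSE-KO libraries were below all WT libraries, with a log2 fold change of -0.40 (SE 0.15) and an adjusted p of 0.596 by edgeR. Of the partners, Ubqln2, a shuttle protein, had a log2 fold change of -0.94 (SE 0.38) and Akirin2, a nuclear import factor of proteasomes, -0.31 (SE 0.18). The transporter subunits Tap1 and Tap2 had -0.31 (SE 0.22) and -0.29 (SE 0.24). The adjusted p of these 5 peaks ran from 0.596 to 0.851.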

How the data were processed

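Per the file headers, the table the authors deposited lists peaks in rows, and 6 of its columns hold raw read counts, 1 for each library. Tools in the submitters' processing notes are STAR 2.7.11a, Trimmomatic 0.39, featureCounts, Picard 3.1.1 and DESeq2 1.36.0. The peak caller and the handling of multimapping reads were not given in the sources used here. RPKM values in the deposited table were used solely to work out library totals, and 6 normalized columns were not used. The notes name the build mm39, but the coordinates follow GRCm38, which was checked against a RefSeq gene table. Peak annotation is the authors'.

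The test was edgeR's quasi-likelihood F test (version 4.0.16 under R 4.3.3), two-sided, on genotype with no other term, after TMM and filterByExpr at a minimum of 10 counts. Benjamini-Hochberg adjustment ran over the 16134 tested peaks, with a threshold of 0.05. The fit was tested on simulated data. Depth per library is given above with the counts. Replicate pairs differed beyond sampling noise (ratio of chi-square to degrees of freedom 1.87 to 2.15), and all 6 libraries entered as separate replicates. SEs come from the F statistic. Alternatives used limma 3.58.1 and DESeq2 1.42.0. Members with values per library are the 6 peaks with the smallest p in each direction, the 5 highest and 5 lowest levels, the inducible beta genes, Psme1 and genes with several peaks. Of the pathway lists, up to 2 genes each with the smallest p are named, and some that this rule takes are not reported here. The members and lists were chosen with earlier results of these data known. RefSeq promoters were found for 33 of 40 member genes.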

Additional observations from a re-analysis of the deposited data

How the results depend on the processing

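Members called stayed at 0 of those tested under each of the alternatives run. Over all peaks 14 were called in the reported fit, 8 with a mean count of 50 or more, 9 with DESeq2, 3 with peaks annotated MuLV-int left out and 7 to 13 with 1 library left out. Libraries that share a replicate number were at most weakly paired (correlations of deviations 0.064, 0.013 and 0.0077 for replicates 1 to 3). For pairs of unlike number the correlations ran from -0.033 to 0.018. A replicate block called 15 peaks and 0 members. The median log2 fold change of members was 0.091 with a mean count of 50 or more, which left 26 of 44 peaks, and -0.0029 to 0.034 with 1 library left out. The difference in share of counts, 0.012 percentage points, ran from 0.0017 to 0.020 with 1 library left out. Among 686 values of single peaks, 47 changed sign, in 19 peaks, and none of them was called. With library size alone the log2 fold change was 0.014 at Psma2, 0.0059 at Psmc3ip and 0.015 at Psmd8. Totals implied by RPKM gave 0.00035 at Psmd8. A mean count of 50 or more gave 0.027 at Psma2, 0.0066 at the Psmd5 start and 0.028 at Psmd8, and voom 0.028 at Psmc3ip and 0.016 at the Psmd5 start. With 1 library left out, the log2 fold change ran from -0.077 to 0.12 at Psma2, -0.37 to 0.041 at Psma5, -0.78 to 0.28 at Psma8, -0.11 to 0.38 at Psmb10, -0.011 to 0.29 at Psmb3, -0.011 to 0.43 at Psmb4, -0.34 to 0.027 at Psmb5. It ran from -0.37 to 0.15 at Psmb6, -0.038 to 0.16 at the Psmb7 start peak, -0.13 to 0.046 at Psmb8, -0.20 to 0.30 at Psmc1, -0.00036 to 0.31 at Psmc2, -0.23 to 0.15 at Psmc3ip. In the same way the range was -0.22 to 0.02 at Psmd1, -0.12 to 0.51 at Psmd10, -0.38 to 0.12 at Psmd2, -0.15 to 0.089 at Psmd3, -0.23 to 0.10 at the Psmd5 start peak and -0.13 to 0.16 at Psmd8. Without a change of sign, it ran from 0.21 to 0.41 at Psma6, 0.10 to 0.42 at Psmd6 and -1.45 to -0.77 at Psmb9. The cause of these changes was not tested. Depth limits the peaks outside starts most, where a median count of 14.3 per library leaves a median SE of 0.44.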
